A study of Mus musculus with 12 samples.

Results

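Messenger RNA of 10 genes of the metalloproteinase system was followed in the lumbar spinal cord of mice. The genes were the 4 tissue inhibitors of metalloproteinases (Timp1, Timp2, Timp3 and Timp4), the 4 matrix metalloproteinases Mmp2, Mmp12, Mmp14 and Mmp19, and the 2 ADAMTS proteases Adamts1 and Adamts4. They were taken from the 33906 gene identifiers of the deposited tables by their Ensembl identifiers and GENCODE M21 names, and each was found under 1 identifier. Poly(A) RNA was sequenced from 12 mice, 1 library per mouse and 3 mice per group. Mice C79, C84 and C85 (group C) carried a model of amyotrophic lateral sclerosis (ALS), a disease in which motor neurons degenerate, and were given carbon dots doped with manganese. Mice E75, E77 and E90 (group E) were of the same model and were taken to have been given the radical scavenger edaravone. That assignment is by elimination, because edaravone is described under the letter D while the list of groups has E. Mice P66, P67 and P74 (group P) were of the model and had phosphate-buffered saline, and H1, H2 and H4 (group H) were healthy wild types. The sources used here do not give the mutation behind the model, the strain, or the sex and age of the animals.

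Matrix metalloproteinases are zinc-dependent enzymes that cut proteins of the extracellular matrix and the cell surface. They are made as inactive precursors, and TIMP proteins block the active enzymes by binding at the catalytic zinc. ADAMTS proteases are secreted relatives, several of which cut the large chondroitin sulphate proteoglycans of brain and cord matrix. In the injured central nervous system these enzymes and inhibitors are made by activated glia, invading myeloid cells, vessels and fibroblasts of the meninges.

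Timp1 and Mmp12 differed most from healthy cord among the 10 genes on the log2(FPKM + 1) scale, so their promoters are shown. They are RefSeq sequences on GRCm38.p6, the 250 bases before each transcription start, written 5′ to 3′ on the strand of the gene. Capitals mark 2 motifs, the AP-1 motif TGANTCA and the ETS motif GGAAGT, which was searched on both strands and so also appears as ACTTCC. The AP-1 motif reads alike on either strand, and neither motif overlaps the other in these windows. Mmp12 has 2 annotated starts. The windows are chrX:20869916-20870165 (plus strand) for Timp1, and chr9:7344147-7344396 and chr9:7347124-7347373 (plus strand) for Mmp12.
Timp1: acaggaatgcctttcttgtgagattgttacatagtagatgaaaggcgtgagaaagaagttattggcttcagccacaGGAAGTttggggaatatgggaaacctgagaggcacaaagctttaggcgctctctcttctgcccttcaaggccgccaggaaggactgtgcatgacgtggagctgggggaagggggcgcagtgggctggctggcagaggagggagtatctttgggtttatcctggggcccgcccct
Mmp12, first start: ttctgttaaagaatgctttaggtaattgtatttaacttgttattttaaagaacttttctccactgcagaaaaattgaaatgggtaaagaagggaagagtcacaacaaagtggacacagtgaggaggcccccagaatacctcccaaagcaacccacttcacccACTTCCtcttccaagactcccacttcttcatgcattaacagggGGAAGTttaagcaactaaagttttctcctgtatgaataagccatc
Mmp12, second start: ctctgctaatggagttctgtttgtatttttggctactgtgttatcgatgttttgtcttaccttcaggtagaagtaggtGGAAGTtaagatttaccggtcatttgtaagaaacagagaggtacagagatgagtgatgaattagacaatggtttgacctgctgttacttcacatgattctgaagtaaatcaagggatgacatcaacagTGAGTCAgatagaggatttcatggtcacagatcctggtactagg

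The AP-1 motif lay in 1 of these 3 windows, starting 44 bases before the second start of Mmp12, and is present in 6.75% of 32851 promoter windows of this length. The ETS motif lay in all 3 windows and is present in 19.7% of all windows. Promoters were matched for 7 of the 10 genes (8 windows), and Mmp2, Mmp19 and Adamts4 were not among them. Over those 8 windows the AP-1 motif was found in 1 and the ETS motif in 4, the fourth being that of Timp4. These matches describe letters in a window and carry no measurement of binding.

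Values are FPKM, the deposited reads per kilobase of exon scaled to library size, so levels of different genes can be set side by side. Reads recovered from the FPKM values summed to 16.8 to 19.8 M per library. A gene was tested when its CPM reached that of 10 reads of the median library in 3 or more libraries, with 15 reads in all, which held for 18118 genes, all 10 members among them. Differences are given on the log2(FPKM + 1) scale ± standard error from limma with 3 mice per group, with Benjamini-Hochberg adjusted p over the 18118 genes and a threshold of 0.05. That scale understates changes of genes at low levels. Markers of the tissue were present: all 7 astrocyte, 6 oligodendrocyte, 6 neuron and 6 motor neuron markers were above 0 in every library. Markers of other tissue and of position along the cord differed widely between libraries. The summed level of 5 Schwann cell and nerve root markers ran from 1.16 FPKM in H4 to 441 FPKM in E90, and that of 6 skeletal muscle markers was 1913 FPKM in H1 and 2.41 to 168 FPKM elsewhere. The 5 erythroid markers summed to 205 to 388 FPKM in C, 108 to 266 FPKM in E, 128 to 307 FPKM in P and 402 to 2577 FPKM in H, and 1, 5 and 3 of them fell in C, E and P against H. Of the 6 neuron markers 1, 2 and 5 fell. The 8 caudal Hox genes, which are expressed toward the tail end of the cord, summed to 10.03 to 44.0 FPKM in C, 62.0 to 94.1 FPKM in E, 23.7 to 81.4 FPKM in P and 3.41 to 39.9 FPKM in H. The part of these lists in the differences between model and healthy cord was not tested.

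Against healthy cord, 6 of the 10 genes rose in group P, 4 in group C and 8 in group E, where 1 more fell. Timp1, Mmp12, Mmp19 and Adamts1 rose in all 3 model groups, Mmp14 and Timp3 in E and P, and Timp2 and Mmp2 in E. Adamts4 fell in E. The count in P was 4 without P66, P67, H2 or H4, and that in E was 5 in all without E75, E90 or H2 and 6 without P67, C85 or H4. With median-ratio scaling of the libraries 5 members passed in P, 4 in C and 7 in E. Of all genes tested, 8.31% passed in C against H, 13.2% in E against H and 15.5% in P against H. The higher genes alone were 7.25%, 11.1% and 12.2% of those tested, and the lower genes 1.06%, 2.15% and 3.26%. Higher genes were 87.2%, 83.7% and 78.9% of those called, and 67%, 58.4% and 53.2% after median-ratio scaling, which lowered the median difference of all genes by 0.08 to 0.10. The median difference of the 10 genes was 0.58 in C, 0.98 in E and 0.68 in P, against 0.068, 0.077 and 0.069 over all genes tested. All 3 comparisons share the 3 healthy libraries. Libraries of C lay wholly above those of H for 7 members, those of E for 9 and those of P for 8, against 22.7%, 24.9% and 26.4% of all genes. They lay wholly below for 0, 1 and 0 members, against 8.63%, 7.93% and 8.88%. For 7 of the 10 genes (Timp1, Timp2, Timp4, Mmp12, Mmp14, Mmp19 and Adamts1) every one of the 9 model libraries lay above every healthy library, which 14.1% of tested genes did in that direction. The members were chosen with earlier results of these data known, so setting them beside all genes is description and not a test. Among the model groups no member passed, whether C was set against P, E against P or C against E, and 0.00552%, 0% and 0.171% of all genes passed there (0.0497% higher and 0.121% lower in C against E).

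**Figure D1:**
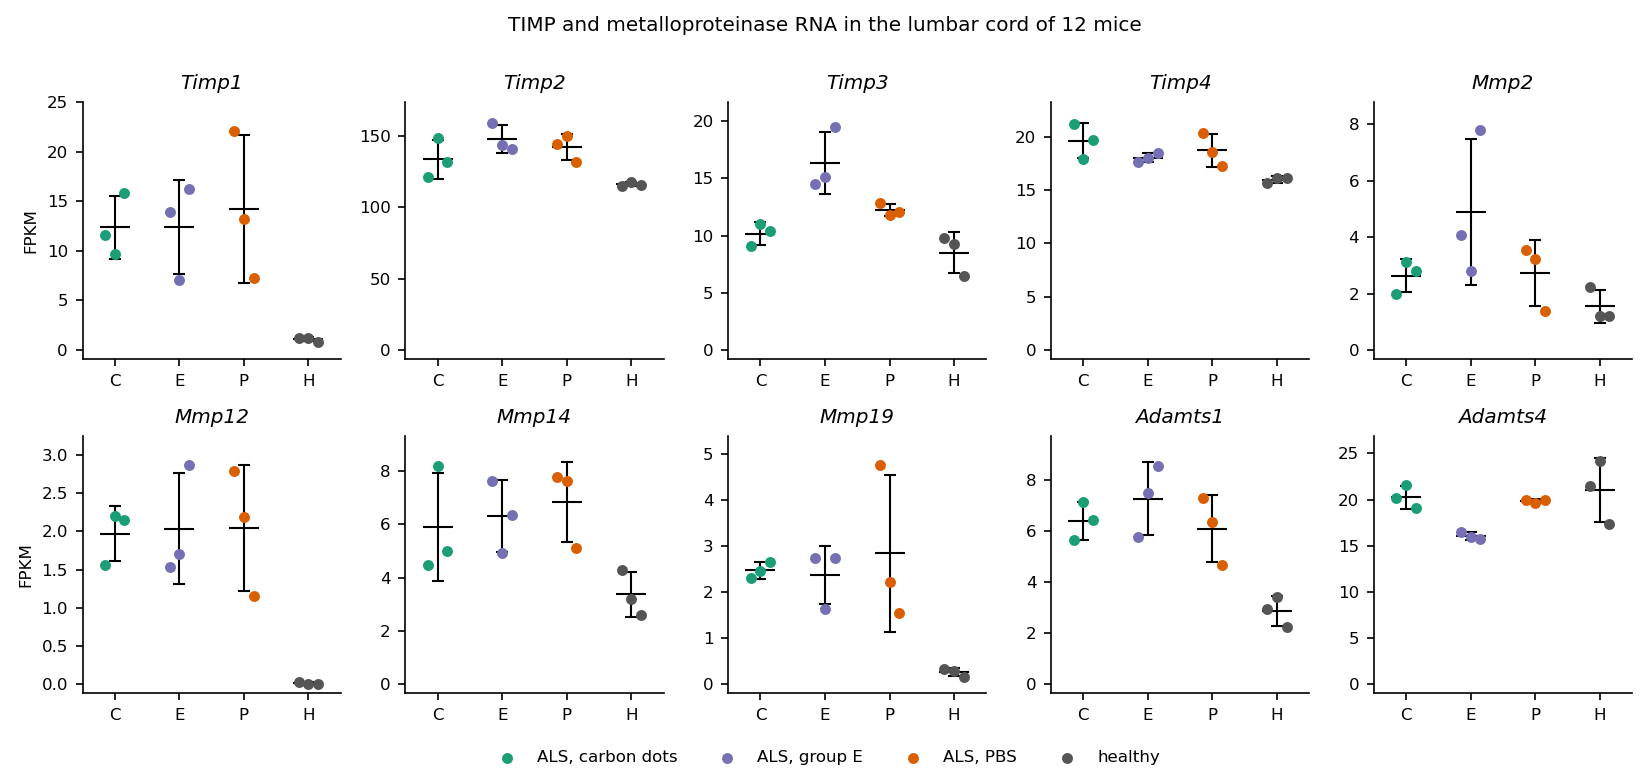
FPKM of the 10 genes in each of the 12 libraries (points), by group C, E, P and H, with group mean and SD (bars, n = 3 mice). Timp1, Mmp12 and Mmp19 are near the bottom of their axes in healthy cord and spread widely within E and P, and Adamts4 is lowest in group E.

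Timp1 is the inducible member of the inhibitor family (ENSMUSG00000001131, chromosome X, 20870166 to 20874735, GRCm38). Timp1 had 11.6, 9.65 and 15.9 FPKM in C79, C84 and C85, and 13.9, 7.08 and 16.2 FPKM in E75, E77 and E90. It had 22.1, 13.2 and 7.29 FPKM in P66, P67 and P74, and 1.21, 1.17 and 0.847 FPKM in H1, H2 and H4. The lowest model library lay well above the highest healthy one, while the model groups overlapped each other over most of their range. Timp1 rose by 2.67 ± 0.35 in C (adjusted p = 0.00152), by 2.63 ± 0.35 in E (adjusted p = 0.00122) and by 2.76 ± 0.35 in P (adjusted p = 0.000933). The means of 12.4 ± 3.18 FPKM in C, 12.4 ± 4.76 in E and 14.2 ± 7.47 in P were 11.5, 11.6 and 13.2 times the 1.07 ± 0.198 FPKM of H (SD, n = 3 each).

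Timp2, which inhibits Mmp2 and also takes part in its activation by Mmp14 at the cell surface, had the highest level of the 10 genes. It had 121, 148 and 132 FPKM in C, 159, 143 and 141 FPKM in E, 144, 150 and 132 FPKM in P, and 115, 118 and 115 FPKM in H, mice in the order given above. All model libraries were above the healthy ones, though C79 was only just above H2. Timp2 rose in E by 0.34 ± 0.10 (adjusted p = 0.0376), a call lost in 11 of 19 alternative settings, among them those without P67, C85, E75, E77, E90, H1, H2 or H4 (differences of 0.29 to 0.38). Median-ratio scaling also lost the call (0.22). Timp2 was higher without passing in C (0.20 ± 0.10, adjusted p = 0.223) and in P (0.29 ± 0.10, adjusted p = 0.0653).

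Timp3, which is held in the matrix and also inhibits ADAM and ADAMTS proteases, had 9.10, 11.04 and 10.4 FPKM in C, 14.5, 15.1 and 19.5 FPKM in E, 12.8, 11.8 and 12.1 FPKM in P, and 9.83, 9.22 and 6.48 FPKM in H. Every E library was above every P library, every P library above every C library, and C overlapped H. Timp3 rose in E by 0.87 ± 0.14 (adjusted p = 0.00309) and in P by 0.49 ± 0.14 (adjusted p = 0.0387), and did not pass in C (0.25 ± 0.14, adjusted p = 0.305). The P call was lost in 9 of 19 settings, among them those without P66, P67, P74, C85, H2 or H4 (0.33 without H4). Median-ratio scaling also lost the P call (0.39). Timp3 lies within Syn3 on the opposite strand and shares 1733 of its 8144 exon bases with it. Syn3 itself had 0.576 to 1.14 FPKM.

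Timp4, the family member most restricted to brain, heart and a few other tissues, varied least. It had 21.3, 17.9 and 19.7 FPKM in C, 17.7, 18.05 and 18.5 FPKM in E, 20.3, 18.5 and 17.3 FPKM in P, and 15.6, 16.2 and 16.2 FPKM in H. The model groups lay above H without overlap but the gap was small. The differences were 0.28 ± 0.08 in C (adjusted p = 0.0582), 0.17 ± 0.08 in E (adjusted p = 0.197) and 0.21 ± 0.08 in P (adjusted p = 0.0951).

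Among the matrix metalloproteinases, Mmp12, the macrophage elastase (ENSMUSG00000049723, chromosome 9, 7344381 to 7369499), was nearly absent from healthy cord. It had 1.56, 2.20 and 2.15 FPKM in C, 1.53, 1.70 and 2.86 FPKM in E, and 2.79, 2.18 and 1.15 FPKM in P. In H1 it had 0.0329 FPKM, which is 4 reads, and it was listed at 0 in H2 and H4, while the model libraries held 142 to 348 reads. Mmp12 rose by 1.55 ± 0.20 in C (adjusted p = 0.00151), 1.56 ± 0.20 in E (adjusted p = 0.00106) and 1.55 ± 0.20 in P (adjusted p = 0.00105). The size depends on the scale: with a pseudocount of 0.1 these differences were 4.22, 4.23 and 4.2, and with limma-voom on recovered reads 7.88, 7.90 and 7.87.

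Mmp19, a secreted protease of many tissues and of macrophages (ENSMUSG00000025355, chromosome 10, 128790910 to 128800824), had 2.30, 2.47 and 2.66 FPKM in C, 2.74, 1.64 and 2.75 FPKM in E, 4.77, 2.22 and 1.55 FPKM in P, and 0.337, 0.293 and 0.164 FPKM in H. P66 was the highest library and no model library came near the healthy ones. The differences were 1.46 ± 0.24 in C (adjusted p = 0.00488), 1.40 ± 0.24 in E (adjusted p = 0.00409) and 1.52 ± 0.24 in P (adjusted p = 0.00291). With a pseudocount of 0.1 they were 2.85, 2.76 and 2.89, and with limma-voom 3.24, 3.15 and 3.30. Mmp19 shares 789 of its 3533 exon bases with Tmem198b on the opposite strand (1.04 to 2.95 FPKM), and whether reads were counted by strand is not stated, so reads over shared exons cannot be told apart.

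Mmp14, the membrane-bound protease that activates Mmp2, had 4.48, 8.20 and 5.02 FPKM in C, 7.63, 4.93 and 6.36 FPKM in E, 7.79, 7.62 and 5.09 FPKM in P, and 4.28, 3.21 and 2.61 FPKM in H. Model libraries were all above healthy ones, though C79 exceeded H1 by little. Mmp14 rose in E by 0.74 ± 0.22 (adjusted p = 0.0473) and in P by 0.84 ± 0.22 (adjusted p = 0.0274), and did not pass in C (0.64 ± 0.22, adjusted p = 0.0978). The E call was lost in 9 of 19 settings, among them without P67, C85, E75, E90, H2 or H4 (0.61 without E75), and the P call in 5, among them without P66, P67, H2 or H4 (0.71 without H4). Median-ratio scaling lost the E call (0.64) and kept the P call.

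Mmp2, the gelatinase that cuts basement membrane collagen, had 2.00, 3.12 and 2.79 FPKM in C, 4.06, 2.81 and 7.81 FPKM in E, 3.56, 3.23 and 1.38 FPKM in P, and 2.23, 1.21 and 1.22 FPKM in H. E90 stood far above every other library, and C and P overlapped H. Mmp2 rose in E by 1.14 ± 0.31 (adjusted p = 0.0318), and the difference was 0.81 without E90 (adjusted p = 0.113). That call was also lost without E75, H2 or H4. The differences of 0.52 ± 0.31 in C (adjusted p = 0.316) and 0.51 ± 0.31 in P (adjusted p = 0.274) did not pass.

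The 2 ADAMTS genes went different ways. Adamts1, a protease of versican and aggrecan that is induced by inflammation (ENSMUSG00000022893, chromosome 16, 85793827 to 85803113), had 5.65, 7.14 and 6.43 FPKM in C, 5.75, 7.51 and 8.55 FPKM in E, 7.28, 6.35 and 4.66 FPKM in P, and 2.96, 3.41 and 2.24 FPKM in H. All 9 model libraries lay above the healthy ones. It rose by 0.94 ± 0.17 in C (adjusted p = 0.00669), 1.09 ± 0.17 in E (adjusted p = 0.0023) and 0.87 ± 0.17 in P (adjusted p = 0.00773).

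Adamts4, an aggrecanase made by oligodendrocytes in the adult mouse brain (ENSMUSG00000006403, chromosome 1, 171250421 to 171260637), had 20.2, 21.5 and 19.1 FPKM in C, 16.5, 15.9 and 15.8 FPKM in E, 19.97, 19.6 and 19.97 FPKM in P, and 21.5, 24.2 and 17.3 FPKM in H. The 3 E libraries were the lowest of the 12, and C and P lay inside the range of H. Adamts4 fell in E against H by 0.36 ± 0.10 on the log2 scale (-0.36, adjusted p = 0.0428), a call lost in 11 of 19 settings, among them those without P67, P74, C79, C85, E75, E77, E90, H1 or H2 (-0.25 without H2, -0.48 without H4). The differences in C (-0.04 ± 0.10, adjusted p = 0.849) and P (-0.06 ± 0.10, adjusted p = 0.702) did not pass, and turned to 0.07 and 0.04 without H2.

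Between the model groups the intervals were wide for the genes that respond most. For Timp1 the difference of C from P was -0.09 (95% interval -0.86 to 0.68, adjusted p = 0.96), that of E from P -0.13 (-0.90 to 0.63, adjusted p = 0.998), and that of C from E 0.04 (-0.72 to 0.81, adjusted p = 0.979). For Mmp12 the intervals were -0.45 to 0.44, -0.44 to 0.45 and -0.46 to 0.43, and for Mmp19 -0.59 to 0.47, -0.65 to 0.41 and -0.47 to 0.59. Differences anywhere within those intervals could not be told from none with 3 mice per group. The sign of the Timp1 and Mmp19 differences from P turned without P66, to 0.27 and 0.28 for C and to 0.23 and 0.22 for E.

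Timp3, Adamts4 and Mmp2 had the largest differences between model groups among the 10 genes relative to their error. Timp3 was 0.63 ± 0.14 lower in C than in E (-0.63, adjusted p = 0.131), 0.38 ± 0.14 higher in E than in P (adjusted p = 0.82) and 0.25 ± 0.14 lower in C than in P (-0.25, adjusted p = 0.603). Its 3 groups did not overlap in any of these pairs. Adamts4 differed by -0.29 ± 0.10 in E from P (adjusted p = 0.741) and by 0.32 ± 0.10 in C from E (adjusted p = 0.316), again with no overlap between the libraries. Mmp2 differed by 0.63 ± 0.31 in E from P (adjusted p = 0.998) and by -0.62 ± 0.31 in C from E (adjusted p = 0.494). Without overlap between groups, 8.33% of all tested genes were higher and 8.77% lower in C than in P, 4.81% higher and 4.2% lower in E than in P, and 10.3% lower and 6.61% higher in C than in E. At an unadjusted p under 0.05 there were 0, 2 and 2 of the 10 genes for C against P, E against P and C against E, and 1802, 889 and 1991 of all genes.

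**Figure D2:**
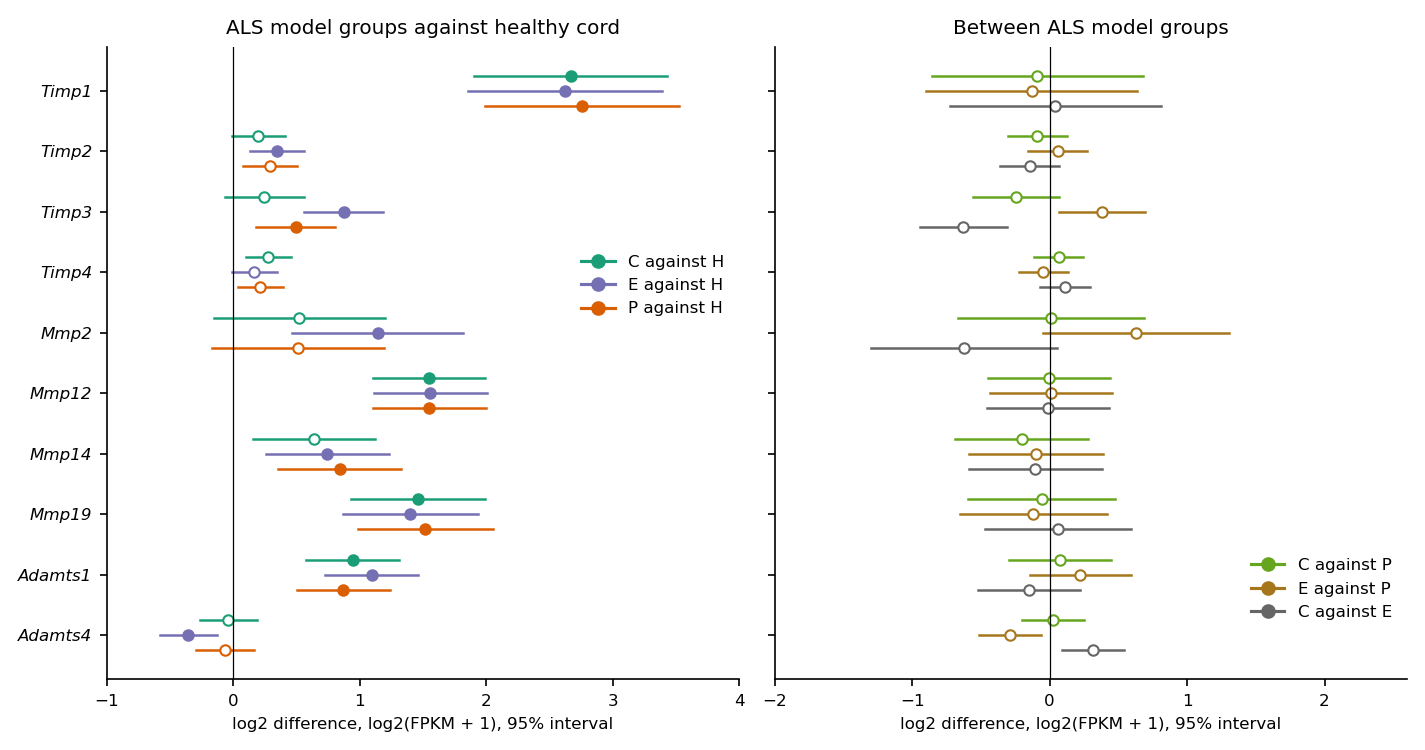
Log2 differences of the 10 genes with 95% intervals from limma on log2(FPKM + 1), for each model group against healthy cord (left) and between model groups (right). Filled points passed an adjusted p of 0.05 and open points did not. Timp1 differs most from healthy cord, and every point on the right is open.

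The summed level of the 4 inhibitors was 163 to 187 FPKM in C, 184 to 205 FPKM in E, 169 to 200 FPKM in P and 139 to 144 FPKM in H. Timp2 made up 72.3 to 79.3% of it in the model libraries and 81.2 to 83.1% in H, so Timp2 carried most of the inhibitor RNA everywhere. Timp1 made up 5.16 to 8.93% in C, 3.86 to 8.32% in E, 4.32 to 11.1% in P and 0.610 to 0.853% in H. The summed level of the 6 proteases was 36.1 to 44.7 FPKM in C, 34.5 to 44.1 FPKM in E, 33.8 to 46.2 FPKM in P and 23.6 to 32.3 FPKM in H. Adamts4 alone was 68.6 to 74.9% of protease RNA in H and 35.7 to 59.1% in the model libraries. Without it the sum was 16.0 to 23.1 FPKM in C, 18.6 to 28.3 FPKM in E, 13.8 to 26.2 FPKM in P and 6.23 to 9.84 FPKM in H, with no overlap between model and healthy libraries. The ratio of inhibitor to protease RNA was 4.19 to 4.66 in C, 4.43 to 5.36 in E, 4.33 to 4.99 in P and 4.46 to 5.90 in H, ranges that overlap. These are sums over genes chosen for description, and they say nothing of protein or enzyme activity.

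Several members shared 1 order of the libraries within a group. In P, 7 of the 10 genes (Timp1, Timp4, Mmp2, Mmp12, Mmp14, Mmp19 and Adamts1) were highest in P66 and lowest in P74. In C, 6 of the 10 (Timp2, Timp3, Mmp2, Mmp12, Mmp14 and Adamts1) were highest in C84 and lowest in C79. In E, 7 of the 10 were highest in E90. The libraries of a group share their animal across genes, so these orders are 1 observation per mouse and not 1 per gene.

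Likeness was measured as the mean absolute difference between standardized log2(FPKM + 1) profiles over the 12 libraries, in SD, so that a low value means a like pattern. Among the members the closest pairs were Timp1 and Mmp19 (0.126), Timp1 and Mmp12 (0.194), Mmp12 and Mmp19 (0.23) and Mmp12 and Adamts1 (0.232). Timp2 lay closest to Mmp14 (0.338) and Timp3 to Mmp2 (0.456). Of 15170 other protein-coding genes, the nearest to Timp1 were Aspg (0.098), B2m and Tmem176b (0.115 each), against a median of 0.955 over all of them. Mmp12 lay nearest to Gusb (0.111), Hexa (0.112) and Ch25h (0.114), and Mmp19 to Ctsb and Cav2 (0.119 each) and Hcar2 (0.121). Adamts1 lay nearest to C5ar1 (0.196), Cdc42se1 (0.203) and Nfya (0.212), and Mmp14 to Tmem43 (0.165), Mras (0.178) and Wdr1 (0.189). Timp3 lay nearest to Ogn (0.224), Antxr2 (0.228) and Ern1 (0.239). All libraries are shared by these profiles, and Timp1, Mmp12 and Mmp19 have in common a step between model and healthy libraries.

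**Figure D3:**
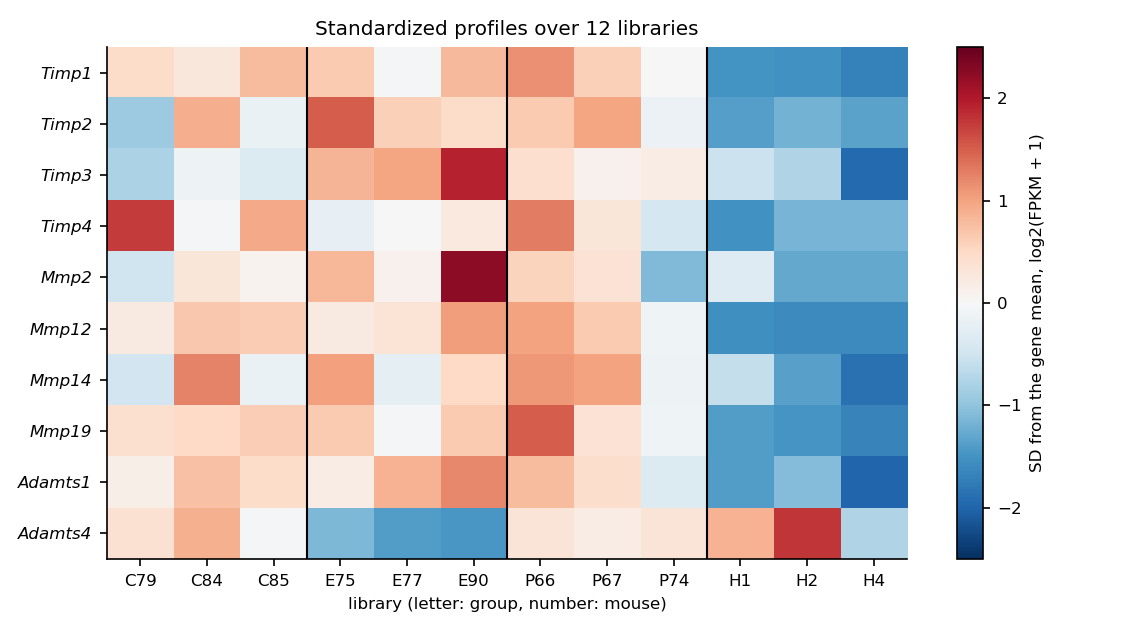
Standardized log2(FPKM + 1) of the 10 genes (rows) in the 12 libraries (columns, by group C, E, P and H); red is above and blue below the mean of the gene, in SD. Timp1, Mmp12 and Mmp19 share a step between the model libraries and H, Timp3 and Mmp2 peak in E90 (1.92 and 2.23), and Adamts4 is lowest in the 3 E libraries (-1.12 to -1.46).

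Markers of cell types moved with several members. In bulk tissue, more cells of a type and more RNA per cell cannot be told apart. The summed level of 8 microglia and macrophage markers was 153 to 200 FPKM in C, 118 to 180 FPKM in E, 126 to 267 FPKM in P and 48.6 to 64.0 FPKM in H, and 6, 6 and 7 of the 8 rose in C, E and P against H. None of them was at 0 in any library. Within P the sum, like Timp1, Mmp12 and Mmp19, was highest in P66 and lowest in P74. The sums of astrocyte, oligodendrocyte, meningeal fibroblast and pericyte markers had that same order within P. Those of neuron, motor neuron, skeletal muscle and caudal Hox genes had the reverse order. Within C the microglia and macrophage sum was highest in C84, where Mmp12 was highest but Timp1 lowest, and Mmp19 was highest in C85. Within E it was highest in E75, where Mmp12 was lowest, while Timp1, Mmp12 and Mmp19 were highest in E90. The 7 astrocyte markers summed to 1854 to 2289 FPKM in C, 1500 to 2186 FPKM in E, 1645 to 2838 FPKM in P and 688 to 799 FPKM in H, with 4, 5 and 6 of 7 rising. The part of either cell type in the members' changes was not tested.

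The summed level of meningeal fibroblast markers, like Timp3 and Mmp2, was highest in group E. The 8 of them, all above 0 in every library, summed to 53.0 to 118 FPKM in C, 143 to 287 FPKM in E, 50.2 to 130 FPKM in P and 13.8 to 32.2 FPKM in H. The sum was 287 FPKM in E90, the library with the most Mmp2 and Timp3, and 13.8 FPKM in H4, the library with the least Timp3. E77 had 143 FPKM of the markers but 2.81 FPKM of Mmp2, below P66 (3.56), P67 (3.23) and C84 (3.12). C84 had 118 FPKM of the markers and 11.04 FPKM of Timp3, while P74 had 50.2 and 12.1 FPKM. Within E the marker sum ran E90, E75, E77 from high to low, the order of Mmp2 but not of Timp3. The sums of Schwann cell and nerve root markers and of skeletal muscle markers had that order too. Against H, 3, 7 and 2 of the 8 meningeal markers rose in C, E and P. Between E and P 0 of 8 passed, as did 0% of all tested genes, though the sums of E and P did not overlap. The list was not uniform: Fmod had 21.9, 54.8 and 31.4 FPKM in C, 25.2, 12.7 and 20.96 FPKM in E, 58.2, 26.8 and 12.6 FPKM in P, and 3.79, 2.10 and 1.59 FPKM in H, and was not highest in E. Schwann cell and nerve root markers summed to 18.6 to 73.2 FPKM in C, 166 to 441 FPKM in E, 41.2 to 109 FPKM in P and 1.16 to 38.9 FPKM in H. Of those 5 genes, 4 were above 0 in every library and Pmp2 was at 0 in some. The summed caudal Hox genes given above were also highest in E90 and lowest in H4, and their order within E was that of Timp3 (E90, E77, E75 from high to low). The sums of oligodendrocyte, neuron, motor neuron and erythroid markers had that same order within E. Within C the caudal Hox genes were lowest in C84, where Timp3 was highest, and within P lowest in P66, where Timp3 was highest too. Hoxc12 and Hoxc13 rose in E against H, Hoxc12 was lower in C than in E (a call at the same threshold), and 6 of the 8 were at 0 in some libraries. The part of these 3 lists in the levels of Timp3 and Mmp2 was not tested.

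Oligodendrocyte markers, like Adamts4, were lowest in group E. The 6 of them, all above 0 in every library, summed to 4475 to 4867 FPKM in C, 2929 to 3865 FPKM in E, 4046 to 4290 FPKM in P and 4484 to 5833 FPKM in H. Against H, 0, 3 and 1 of 6 fell in C, E and P. In E against P 0 of 6 passed, as did 0% of all tested genes, though the sums of E and P did not overlap. H4 held the most of these markers and the least Adamts4 of the healthy libraries, and within E the order of the sum (E90, E77, E75 from high to low) was the reverse of that of Adamts4. The part of these cells in the level of Adamts4 was not tested.

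**Figure D4:**
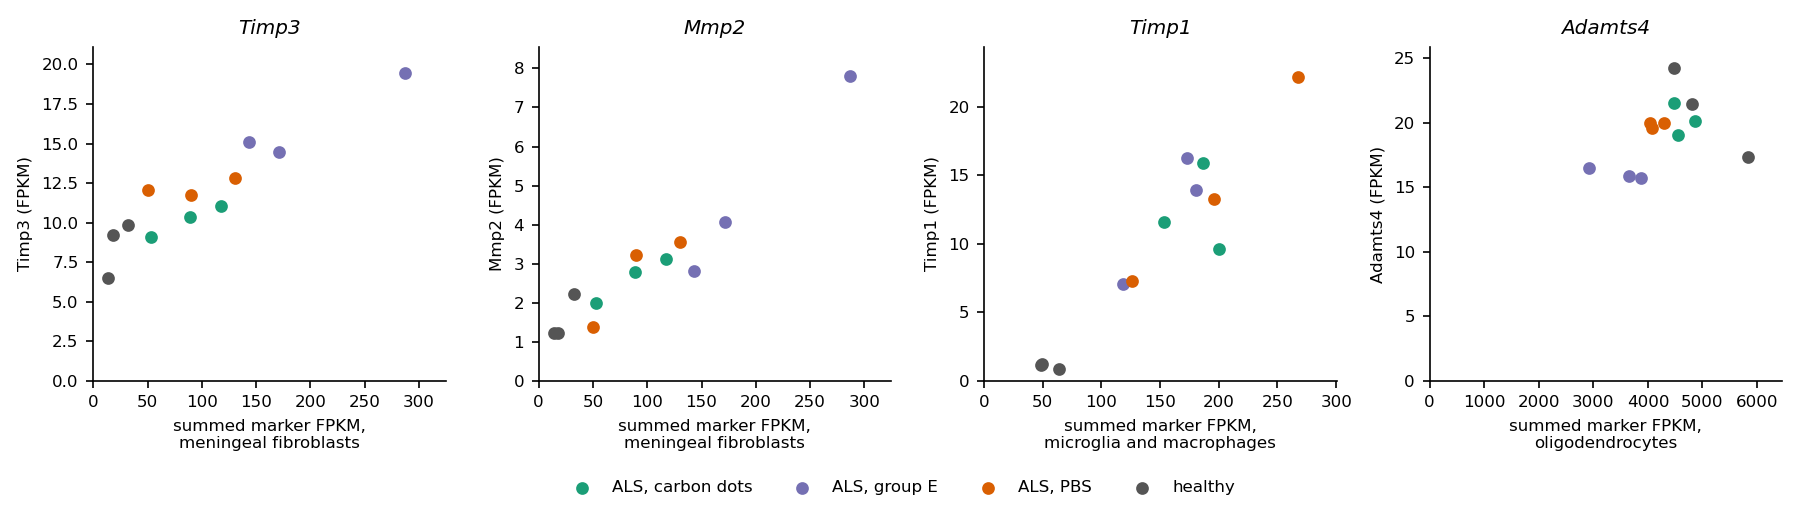
Levels of Timp3, Mmp2, Timp1 and Adamts4 (FPKM, vertical) against the summed FPKM of the marker list named under each panel, 1 point per library in the 4 groups. Timp3 and Mmp2 are highest in the E library with 287 FPKM of meningeal markers, Timp1 is lowest in the 3 healthy libraries, and the 3 E libraries have the least Adamts4 and the least oligodendrocyte marker RNA.

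Of 16 other matrix metalloproteinases in the files, 10 were tested, and in P against H 1 rose and 1 fell (median 0.12), with 1 call in all without P66, P67 or H2. For this list and those that follow, 12.2% of all tested genes were higher in P against H, 7.25% in C and 11.1% in E. The lower genes were 3.26%, 1.06% and 2.15%. Mmp9, a gelatinase found in the motor neurons that are lost first in ALS models, had 1.64 FPKM in P and 4.07 FPKM in H (-0.92 ± 0.15, adjusted p = 0.00374), and it also fell in C (-0.75 ± 0.15, adjusted p = 0.0135) and E (-0.93 ± 0.15, adjusted p = 0.00327). In C 2 of the list rose and 1 fell, and none passed without C84. In E 0 rose and 1 fell. The 6 motor neuron markers summed to 43.6 to 57.9 FPKM in C, 36.3 to 70.1 FPKM in E, 33.3 to 69.7 FPKM in P and 63.7 to 139.8 FPKM in H, and 0, 2 and 2 of them fell. Their part in the level of Mmp9 was not tested. Mmp11, stromelysin 3, rose in P (0.64 ± 0.18, adjusted p = 0.0315), a call lost without P66, P67, H2 or H4. It also rose in C (0.64 ± 0.18, adjusted p = 0.0462) and did not pass in E (0.52 ± 0.18, adjusted p = 0.0724). Of 16 tested ADAMTS genes beyond the members, 2 rose in P (median 0.09), 1 in C (0 without C79, C84 or H2, and 2 without P66) and 5 in E (3 without C79, 2 without E75 and 1 without E90, H1 or H2). Those in P were the aggrecanase Adamts5 (0.54 ± 0.13, adjusted p = 0.0188) and Adamts10 (0.43 ± 0.13, adjusted p = 0.0395), and without P66 or H2 neither passed. The count in P was 1 without P67, C79, E77, E90 or H1. With all libraries, the counts of these ADAMTS genes in P and in C lay near the shares of all tested genes.

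Of 8 tested ADAM genes, which encode membrane-bound sheddases, 4 rose in P (median 0.31), 2 in C and 5 in E (3 without H2 and 1 without E90). The count in C was 0 without P67, C79, C84, C85, E75, E77, H1 or H2, and also with no filter or with median-ratio scaling. Adam17, which releases tumour necrosis factor from the cell surface, had 7.52 FPKM in P and 4.38 FPKM in H (0.65 ± 0.13, adjusted p = 0.00821). Adam10 (0.43 ± 0.10, adjusted p = 0.0171), Adam15 (0.30 ± 0.07, adjusted p = 0.0206) and Adam8 (0.75 ± 0.19, adjusted p = 0.0235) also rose, and without P66 Adam17 alone of the 4 passed. The count in P was 2 without P67 or H2.

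Of 17 tested genes of other inhibitors and regulators of metalloproteinases, 6 rose in P and none fell (median 0.37), with 4 rising in C and 8 in E (5 without E75, E90 or H2). The count in P was 4 without P66, with no filter or with only the 2 groups in the fit, and 8 without P74. The list spans membrane and secreted inhibitors, the plasminogen system and other partners. Reck rose in P and E, the integrin gene Itgav in P, and Lrp1, Furin and Pcolce in E. These genes were named after their values were seen. A2m, the broad protease trap alpha-2-macroglobulin, had 63.4 FPKM in P and 9.02 FPKM in H (2.64 ± 0.21, adjusted p = 9.61e-05). Plau, the urokinase activator of plasminogen, had 10.5 FPKM in P and 1.13 FPKM in H (2.34 ± 0.29, adjusted p = 0.000739), and its receptor gene Plaur 2.13 FPKM in P and 0.293 FPKM in H (1.23 ± 0.21, adjusted p = 0.00409). Plat, the tissue plasminogen activator, had 20.4 FPKM in P and 8.66 FPKM in H (1.10 ± 0.19, adjusted p = 0.0039). These 4 calls held in all 19 settings.

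Of 14 matrix substrates, 3 rose and 1 fell in P (median 0.23), 2 rose in C (1 without C85 or H2), and 7 rose and 1 fell in E (median 0.54), where 3 calls were made without E90 and 4 without H2. Fn1, fibronectin, had 11.9 FPKM in P and 4.16 FPKM in H (1.24 ± 0.32, adjusted p = 0.0246). Eln, elastin, rose by 0.59 ± 0.15 (adjusted p = 0.024) and the proteoglycan gene Vcan by 0.48 ± 0.14 (adjusted p = 0.0416). Bcan, which encodes brevican, had 67.3 FPKM in P and 94.4 FPKM in H (-0.49 ± 0.11, adjusted p = 0.0158). Without P66 none of the 4 passed, nor without P67 or H2. In C against P and in E against P no gene of these 5 lists passed, where 0.00552% and 0% of all tested genes did.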

How the data were processed

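The authors deposited 4 tables, 1 per group, with 1 column per mouse and no unit named. FPKM was settled from the deposited values: times exon length, 95.3 to 95.7% of low values (up to 50 steps) fell on whole numbers of 1 step per library, to a tolerance of 0.02. The submitters' processing notes name cutadapt, HISAT2, featureCounts and GRCm38, with no roles, versions or strand setting in what was used here. Recovered reads summed to 106.6 to 108% of the scaling totals, for a reason not resolved. Names, positions and exon lengths were those of GENCODE M21 (GRCm38; 33829 identifiers matched).

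Genes were kept at a CPM worth 10 reads of the median library in 3 or more libraries, with 15 reads in all. limma 3.58.1 in R 4.3.3 was run on log2(FPKM + 1) with 1 mean per group over all 12 libraries (8 residual degrees of freedom) and trended, robust moderation. All p-values are two-sided. The procedure was tested on simulated data. Changes were placed there only in genes at higher levels, so that test does not cover low-level genes such as Mmp12 and Mmp19. Each library is a separate mouse per the labels. The members, lists and tests were chosen with earlier results of these data known, and motifs after the data were seen. All 10 members are named. From each other list, up to 4 genes of smallest adjusted p that passed in P against H are named, with any that passed in C or E against P. For each member that passed in P against H, the 3 nearest profiles are named.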

Additional observations from a re-analysis of the deposited data

How the results depend on the processing

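No paired analysis was possible because no mouse number is shared between groups. Each result was refitted under 19 alternatives: 7 settings and the omission of each of 12 libraries (for the pathway lists these were added after the data were seen). Of 1140 refits of single members, 1050 kept direction and side of the threshold, 51 lost a call, 6 gained one and 33 changed sign, none of them with a pass. Leaving out 1 library gave 933 (without P66) to 3535 genes in P against H, 567 (without H2) to 1976 in C against H, 1159 (without E90) to 2795 in E against H, 0 to 2 in C against P and in E against P, and 0 (without C79) to 56 in C against E. Members called in E against H were then 5 to 9, with 5 without E75, E90 or H2, and those in P against H 4 to 7.

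Without the filter the counts of genes were 1444 in P against H, 736 in C against H, 1469 in E against H, 5 in C against P, 3 in E against P and 4 in C against E, with 5 members in E against H. With only the 2 groups in the fit they were 1471 in P against H, 4 in C against E and 6 members in E against H. The pseudocount of 0.1 gave 0 in C against P and 17 in C against E, limma-voom 0 in C against P, and median-ratio scaling 2 in C against P.

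Sign changes were confined to members that did not pass. Mmp12 in C against P was 0.0181 with the pseudocount of 0.1, 0.0065 with limma-voom and 0.0048 with median-ratio scaling, and in C against E 0.0016 with that scaling. Leaving out 1 library gave these ranges. In P against H they were Adamts4 -0.1907 to 0.0401. In C against H they were Adamts4 -0.1645 to 0.0664. In C against P they were Timp1 -0.47 to 0.27, Mmp12 -0.23 to 0.17, Mmp19 -0.31 to 0.28, Mmp2 -0.29 to 0.18, Adamts1 -0.0795 to 0.1951 and Adamts4 -0.0166 to 0.0666. In E against P they were Timp1 -0.51 to 0.23, Timp4 -0.1000 to 0.0114, Mmp19 -0.37 to 0.22, Mmp12 -0.22 to 0.19 and Mmp14 -0.2693 to 0.0443. In C against E they were Mmp12 -0.13 to 0.18, Mmp14 -0.33 to 0.0431, Timp1 -0.29 to 0.26 and Mmp19 -0.11 to 0.14. Depth limits Mmp12 in H, where 1 library holds 4 reads.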

Other observations

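Timp1, Timp3 and Timp4 each lie within a synapsin gene on the opposite strand. Their hosts, Syn1, Syn3 and Syn2, encode proteins of synaptic vesicles and were looked up after their values were seen. Timp1 shares 0 of its 888 exon bases with exons of Syn1, and Timp4 shares 90 of 5894 with those of Syn2. Syn1 had 67.8 ± 10.2 FPKM in C, 83.6 ± 4.04 in E, 74.02 ± 13.2 in P and 85.3 ± 8.19 in H (SD, n = 3 each), and did not pass in P against H (-0.21 ± 0.14, adjusted p = 0.321 by limma). Syn2 (-0.18 ± 0.14, adjusted p = 0.378) and Syn3 (-0.13 ± 0.12, adjusted p = 0.464) did not pass either, while Timp1 and Timp3 rose in the same comparison.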
